A study of Mus musculus with 15 samples.

Results

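The 33 genes described here mark the vessels and coverings of the brain: 15 mark endothelium, 5 pericytes, 5 vascular smooth muscle and 8 meningeal fibroblasts. They were chosen by symbol, and each was found as 1 row among the 54232 gene rows of the deposited count table. RNA had been sequenced from the striatum of 15 mice aged 6 months, with 1 library per mouse: 4 KI-96, 4 E1 and 7 WT mice. The study's title concerns knock-in mice of Huntington's disease and toxicity from RAN translation, in which expanded repeats are translated without a start codon. The labels name the genotypes KI-96 and E1 and describe neither further, and no strain, sex or treatment is given in the sources used here. Levels are given as CPM, counts of reads per gene scaled to the normalized size of the library, unless another unit is named.

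Brain endothelial cells form the blood-brain barrier, a layer sealed by tight junctions, stocked with nutrient and efflux transporters and kept in place by vascular growth factor and angiopoietin receptors. Pericytes wrap capillaries and smooth muscle cells wrap arterioles, and together they are called mural cells. Fibroblasts of the meninges and of larger vessels lay down fibrillar collagens and proteoglycans. In bulk tissue, fewer cells of a type and less RNA per cell cannot be told apart.

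Of the 33 genes, 31 had enough reads to be tested, and none of them passed an edgeR adjusted p of 0.05 in any of the 3 comparisons. In KI-96 striatum, Vwf, Myh11, Col1a2 and Col3a1 stood above WT at an unadjusted p under 0.05, and against E1 striatum Myh11, Col1a1, Col3a1 and Abcc9 did. These 4 of 31, or 12.9%, compare with 10.5% of all tested genes against WT and 14.3% against E1, counted in either direction. All 4 were higher in each comparison, as 5.8% of all tested genes were against WT and 7.84% against E1. None of the 4 against WT had an unadjusted p under 0.05 once presence of Y-linked reads, described below, was a covariate. That fit rests on WT replicate 1 alone within WT, and 1.18% of all tested genes had such a p in it. Single mice stood high or low for many members at once, and 1 KI-96 library favoured long transcripts.

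Total counts per library ran from 14678565 to 26388542, and mitochondrial transcripts took 3.62% to 6.37% of them. KI-96 replicate 3 favoured long transcripts. Its median log2 CPM deviation from the other libraries was 0.479 higher for the 4567 tested genes with the most exon sequence than for the 4569 with the least, and this difference lay between -0.114 and 0.102 in the other 14 libraries. The 11 markers of cortical excitatory neurons summed to 1572 CPM in E1 replicate 2, 1006 CPM in E1 replicate 3 and 1386 CPM in WT replicate 3, against 148 to 306 CPM elsewhere. The Y-linked Ddx3y was at 0 CPM in all 4 KI-96 libraries, at 0 to 0.0562 CPM in the 4 E1 libraries, at 0 CPM in WT replicate 1 and at 54.7 to 75.3 CPM in WT replicates 2 to 7. Genotype and presence of Y-linked reads therefore cannot be told apart except through WT replicate 1. Every fit below with that covariate rests on WT replicate 1 alone within WT.

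Compared per length, as TPM, which also divides by annotated exon length, the members spanned a wide range of levels. Ptgds, which encodes the prostaglandin D2 synthase of the meninges and also of other brain cells, was the highest at 452 ± 167 TPM (SD over 15 libraries). Slc2a1, the glucose transporter of the barrier, followed at 81.8 ± 19.1 TPM, and Vtn, the matrix protein vitronectin made by brain pericytes, at 76.9 ± 13.2 TPM. Ptgds ranged from 97.3 to 699.7 TPM and Slc2a1 from 54.3 to 119 TPM, and the means of Slc2a1 and Vtn did not differ beyond their spread. Rgs5, a G protein regulator of pericytes, had 49.0 ± 8.08 TPM and Cldn5, the main claudin of the barrier, 48.3 ± 19.99 TPM, which again did not differ beyond their spread. Among smooth muscle genes Myl9 was highest at 24.4 ± 5.45 TPM, Acta2 had 9.73 ± 3.52 TPM and Myh11 1.81 ± 0.811 TPM. The defining collagens of fibroblasts were low, with 2.17 ± 0.679 TPM for Col1a1, 1.58 ± 0.416 TPM for Col1a2 and 0.417 ± 0.176 TPM for Col3a1.

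**Figure D1:**
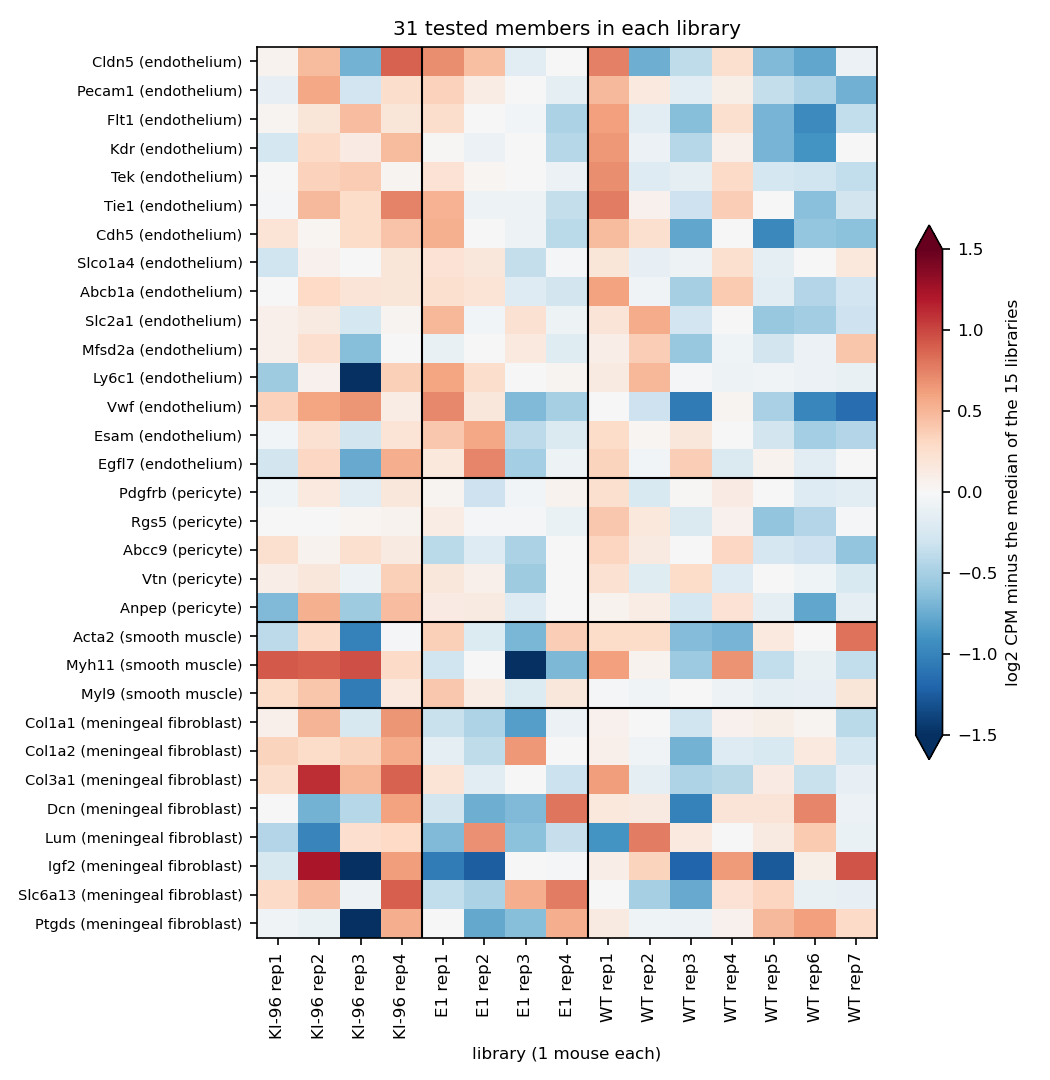
Log2 CPM of the 31 tested members in each library, as the difference from the median of the 15 libraries for that gene (red higher, blue lower, colours saturate at 1.5). Columns are single mice of KI-96, E1 and WT, and the rows are ordered by cell class. KI-96 replicates 2 and 4 and WT replicate 1 are above the median for nearly every endothelial and pericyte gene, and Ly6c1, Igf2 and Ptgds are lowest in KI-96 replicate 3.

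Single mice stood high or low across most members. KI-96 replicate 4 lay above the 15-library median for 29 of the 31 tested members, KI-96 replicate 2 for 28 and WT replicate 1 for 27. At the other end E1 replicate 3 and WT replicate 3 did so for 5 each, and WT replicates 6 and 7 for 6 each. The 3 highest mice were thus KI-96 and WT mice, and the 4 lowest E1 and WT mice.

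The mean log2 CPM of the 15 endothelial genes averaged 4.07 ± 0.234 in KI-96 (SD, n = 4), 4.01 ± 0.266 in E1 (n = 4) and 3.84 ± 0.322 in WT (n = 7). Within WT it ran from 3.48 in replicate 6 to 4.39 in replicate 1, a span that held all 4 KI-96 and all 4 E1 libraries. The 3 WT libraries with the highest total counts, replicates 5 to 7, were among the 4 lowest WT libraries, at 3.48 to 3.69. The mean over the 5 pericyte genes averaged 4.05 ± 0.174 in KI-96, 3.91 ± 0.118 in E1 and 3.92 ± 0.209 in WT. That of the 3 tested smooth muscle genes averaged 2.63 ± 0.378 in KI-96, 2.30 ± 0.432 in E1 and 2.48 ± 0.231 in WT. That of the 8 fibroblast genes averaged 1.96 ± 0.446 in KI-96, 1.65 ± 0.264 in E1 and 1.82 ± 0.238 in WT. The groups overlapped in all 4 classes.

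**Figure D2:**
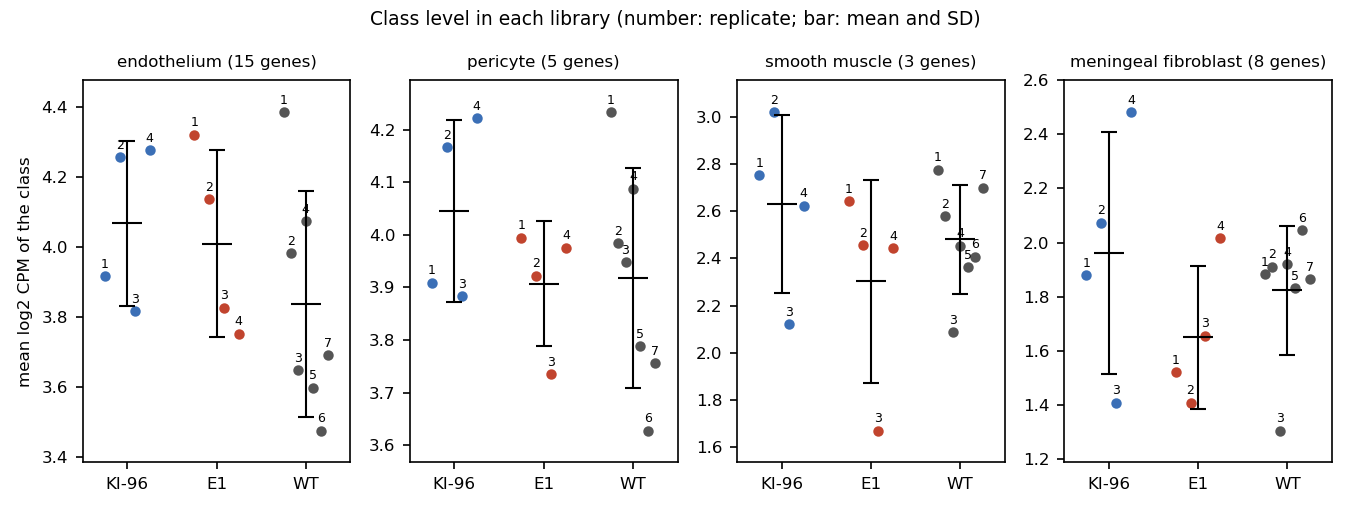
Mean log2 CPM of the tested members of each class, 1 point per mouse with its replicate number, and the mean and SD of each genotype (KI-96 n = 4, E1 n = 4, WT n = 7). The vertical axes differ between panels and do not start at 0. The genotypes overlap in every panel, and WT spans 3.48 to 4.39 for endothelium.

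Endothelial genes were compared first. Of 15 tested, 0 passed an edgeR adjusted p of 0.05 in KI-96 against WT, in E1 against WT or in KI-96 against E1, and the shares of all 18278 tested genes that did were 0%, 0.00547% and 0%. At an unadjusted edgeR p under 0.05, 4 of the 31 members, or 12.9%, passed in KI-96 against WT, all higher, where 10.5% of all tested genes passed, 5.8% higher and 4.68% lower. In E1 against WT 0 of 31 passed, where 8.75% of all genes did, 3.69% higher and 5.06% lower. In KI-96 against E1 4 of 31 passed, all higher, where 14.3% of all genes did, 7.84% higher and 6.42% lower. Counted in either direction, the share of members was near that of all genes in both comparisons of KI-96.

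Vwf encodes von Willebrand factor, which tethers platelets and is richest in larger vessels and veins. It had 19.4, 22.9, 24.2 and 16.4 CPM in KI-96, 25.2, 17.2, 9.57 and 10.7 CPM in E1, and from 6.82 to 15.6 CPM in WT with a median of 10.9. All 4 KI-96 mice lay above all 7 WT mice, and the E1 mice spread over both ranges. Groups that did not overlap were seen for 2 of 31 members in KI-96 against WT, both higher, and for 1.29% of all tested genes, 0.635% higher and 0.651% lower. In E1 against WT 0 of 31 members were apart, against 1.69% of all genes, 0.892% higher and 0.799% lower. The log2 fold change of Vwf in KI-96 against WT was 0.94 (SE 0.27, edgeR adjusted p = 0.313), and the exact permutation p was 0.00909, where 330 splits can give no less than 0.00303. For E1 against WT the value was 0.54 (SE 0.27, adjusted p = 0.599), and for KI-96 against E1 0.40 (SE 0.31, adjusted p = 0.551). Without KI-96 replicate 4, whose column is headed 96_4, the value for Vwf against WT was 1.04, and leaving out KI-96 replicate 3 gave 0.86. With the Y-linked covariate it was 0.45 (SE 0.49).

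Slc2a1, the glucose transporter GLUT1, had 86.1, 89.3, 68.0 and 84.2 CPM in KI-96, 115, 79.4, 95.3 and 77.2 CPM in E1, and 55.1 to 119.8 CPM in WT with a median of 66.8. The WT range held every KI-96 and E1 mouse. Its log2 fold change was 0.09 (SE 0.19) in KI-96 against WT, 0.25 (SE 0.18) in E1 against WT and -0.16 (SE 0.21) in KI-96 against E1. Cldn5, the claudin that seals the barrier, had 18.8, 25.1, 11.0 and 33.5 CPM in KI-96, 29.3, 24.8, 16.1 and 18.1 CPM in E1, and 10.5 to 30.6 CPM in WT with a median of 13.9. KI-96 held both a mouse near the WT minimum, replicate 3, and the highest mouse of all, replicate 4. For Cldn5 the log2 fold change was 0.43 (SE 0.32) in KI-96 against WT, 0.42 (SE 0.32) in E1 against WT and 0.00 (SE 0.36) in KI-96 against E1.

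Ly6c1, a small anchored surface protein of brain endothelium, varied most in this class, with 4.90 times as much in its highest as in its lowest library. It had 13.5, 20.4, 6.00 and 25.02 CPM in KI-96, 29.4, 23.5, 19.5 and 20.1 CPM in E1, and 18.1 to 27.7 CPM in WT with a median of 18.8. Its near copy Ly6c2 was at 0 to 0.205 CPM, and how reads shared by both were counted is not given. KI-96 replicates 1 and 3 lay below every WT and E1 mouse. The log2 fold change of Ly6c1 in KI-96 against WT was -0.32 (SE 0.26, adjusted p = 0.691). Leaving out KI-96 replicate 3 gave -0.04, and leaving out KI-96 replicate 4 gave -0.62.

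The remaining endothelial genes were compared by role. The vascular growth factor receptors Flt1 and Kdr had log2 fold changes of 0.41 (SE 0.24) and 0.31 (SE 0.23) in KI-96 against WT, and 0.15 (SE 0.24) and 0.00 (SE 0.24) in E1 against WT. Tek, the angiopoietin receptor, and Tie1, its partner receptor, had 0.20 (SE 0.18) and 0.34 (SE 0.24) in KI-96 against WT. E1 against WT gave 0.04 (SE 0.18) and -0.02 (SE 0.24). With the Y-linked covariate all 4 were negative in KI-96 against WT, at -0.39 for Flt1, -0.47 for Kdr, -0.50 for Tek and -0.37 for Tie1. Within WT that fit rests on replicate 1 alone. The receptors were highest in WT replicate 1, where Flt1 reached 67.5 CPM, and Flt1, Kdr and Tie1 were lowest in WT replicate 6, where Flt1 was at 22.7 CPM.

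Among the junction genes, Cdh5 encodes the cadherin of endothelial contacts and had 0.48 (SE 0.25, adjusted p = 0.513) in KI-96 against WT. The adhesion molecules Pecam1 and Esam had 0.25 (SE 0.20) and 0.13 (SE 0.20). The barrier transporters Slco1a4 for organic anions, Abcb1a for drug efflux and Mfsd2a for lipids had -0.04 (SE 0.12), 0.19 (SE 0.19) and -0.07 (SE 0.18). Egfl7, a protein secreted into the vessel wall, had -0.01 (SE 0.24), and its gene overlaps Agpat2 on the opposite strand, which had 307 counts in all. For Slco1a4 the 95% interval of the log2 fold change in KI-96 against WT ran from -0.30 to 0.21, the narrowest of the class in that comparison.

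In E1 against WT these 7 genes lay between -0.05 for Mfsd2a and 0.29 for Cdh5. Over the 15 endothelial genes the median log2 fold change was 0.20 in KI-96 against WT with 11 positive, 0.15 in E1 against WT with 12 positive, and 0.06 in KI-96 against E1 with 9 positive. The medians over all 18278 tested genes were -0.01, -0.00 and -0.00. The endothelial medians turned negative with presence of Y-linked reads as a covariate, at -0.34 in KI-96 against WT and -0.40 in E1 against WT, and without WT replicates 5 to 7, at -0.01 and -0.03. Without WT replicate 1 the median of KI-96 against WT was 0.35, and without WT replicate 6 that of E1 against WT was 0.05.

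**Figure D3:**
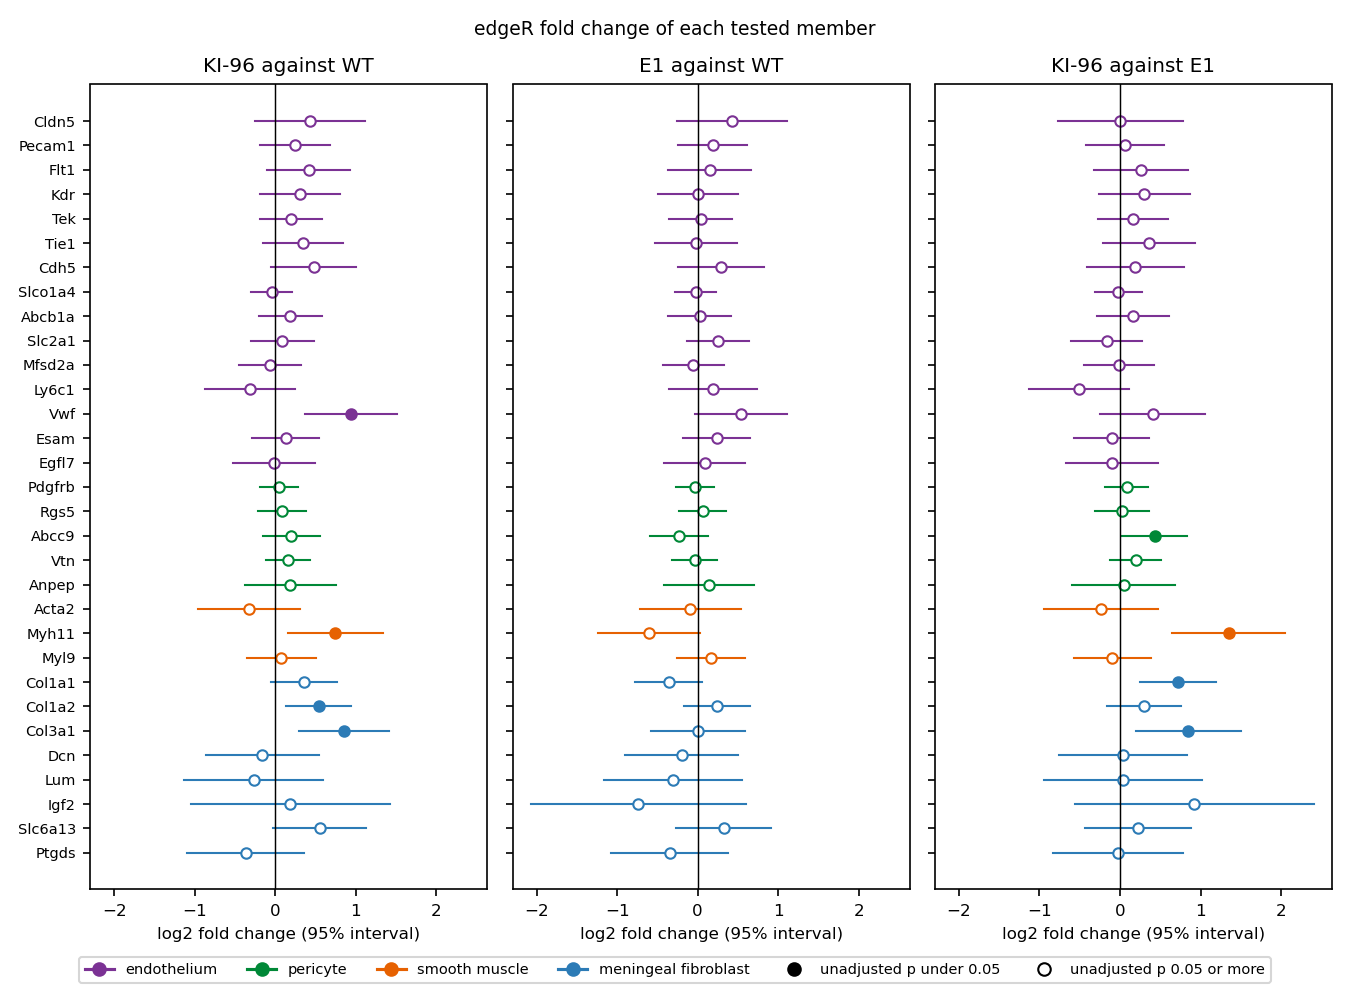
Log2 fold changes of the 31 tested members from edgeR, with 95% intervals derived from its F statistic, in KI-96 against WT, E1 against WT and KI-96 against E1. Filled points had an unadjusted p under 0.05 (4, 0 and 4 members), and colours give the class. The intervals of most members include 0, and Igf2 has the widest.

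Among the 5 pericyte genes the highest library had between 1.47 and 2.64 times the lowest. Rgs5 had 65.0, 65.2, 66.5 and 67.4 CPM in KI-96, 70.5, 64.0, 64.3 and 60.7 CPM in E1, and 43.1 to 85.7 CPM in WT with a median of 63.4. The KI-96 mice were nearly equal, and WT held both extremes. Rgs5 gave log2 fold changes of 0.09 (SE 0.14) in KI-96 against WT and 0.06 (SE 0.14) in E1 against WT. Vtn had 47.3, 49.6, 41.7 and 56.4 CPM in KI-96, 49.5, 46.7, 30.6 and 43.8 CPM in E1, and 37.6 to 53.5 CPM in WT with a median of 42.0. Its ranges overlapped, with log2 fold changes of 0.16 (SE 0.13) in KI-96 against WT and -0.04 (SE 0.13) in E1 against WT.

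Abcc9, the sulfonylurea receptor subunit of the potassium channel of mural cells, had 10.0, 8.75, 9.99 and 9.33 CPM in KI-96, 6.35, 7.36, 6.06 and 8.45 CPM in E1, and 5.60 to 10.6 CPM in WT with a median of 8.41. All 4 KI-96 mice lay above all 4 E1 mice, and WT covered both ranges. It was 1 of 3 members of 31 whose groups did not overlap in KI-96 against E1, all higher, where 4.79% of all tested genes were apart, 2.29% higher and 2.5% lower. For Abcc9 the difference of KI-96 from E1 was 0.43 in log2 (SE 0.19, adjusted p = 0.317), with an exact permutation p of 0.0286, the smallest that 70 splits can give. Against WT it was 0.20 (SE 0.17) for KI-96 and -0.23 (SE 0.17) for E1. Without the 3 libraries with high cortical markers, a fit with 2 E1 libraries, Abcc9 had 0.36 (SE 0.25) in KI-96 against E1. Its unadjusted p was then not under 0.05.

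Pdgfrb, the growth factor receptor that recruits pericytes, lay between 17.2 and 25.4 CPM in all 15 libraries, the narrowest range of any member in proportion. Its log2 fold changes were 0.05 (SE 0.11) in KI-96 against WT, -0.04 (SE 0.11) in E1 against WT and 0.08 (SE 0.13) in KI-96 against E1. The 95% interval in KI-96 against WT ran from -0.19 to 0.28. Anpep, an aminopeptidase of the pericyte surface, had 1.09, 2.63, 1.20 and 2.498 CPM in KI-96, 1.95, 1.97, 1.54 and 1.78 CPM in E1, and 0.998 to 2.08 CPM in WT with a median of 1.61. The KI-96 mice split into a low and a high pair, and the log2 fold change against WT was 0.18 (SE 0.27). The class median was 0.16 in KI-96 against WT, -0.04 in E1 against WT and 0.08 in KI-96 against E1, and with the Y-linked covariate the first was -0.15.

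Smooth muscle genes encode the contractile apparatus of arterioles, and many are driven through the CArG box, the site of serum response factor. The 250 bases before the RefSeq start (build GRCm38.p6) are shown for Acta2, Myl9 and Cnn1, so that the values of these genes can be read beside the site they are known for. Myh11 and Tagln are not shown. Capitals mark CArG boxes, searched on both strands as CC, a run of 6 bases of A or T with at most 1 other base, and GG.
Acta2, chr19:34255374-34255623, minus strand: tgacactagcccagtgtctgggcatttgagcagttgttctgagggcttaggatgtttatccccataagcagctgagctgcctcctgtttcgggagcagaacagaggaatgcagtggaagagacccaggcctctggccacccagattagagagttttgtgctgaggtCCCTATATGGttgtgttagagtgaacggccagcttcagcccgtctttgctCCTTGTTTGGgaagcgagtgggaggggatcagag
Myl9, chr2:156775214-156775463, plus strand: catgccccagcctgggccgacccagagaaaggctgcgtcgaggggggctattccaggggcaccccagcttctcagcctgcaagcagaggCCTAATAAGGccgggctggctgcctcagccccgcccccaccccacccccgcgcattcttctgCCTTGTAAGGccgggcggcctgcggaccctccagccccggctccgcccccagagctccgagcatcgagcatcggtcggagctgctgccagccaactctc
Cnn1, chr9:22099003-22099252, plus strand: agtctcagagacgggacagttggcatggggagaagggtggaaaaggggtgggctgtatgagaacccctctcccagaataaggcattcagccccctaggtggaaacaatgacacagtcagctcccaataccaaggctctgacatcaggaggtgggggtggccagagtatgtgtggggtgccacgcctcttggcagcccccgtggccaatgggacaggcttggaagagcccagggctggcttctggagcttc
Acta2 held 2 such boxes, at -84 to -75 and -34 to -25 from the start, each with 1 inner base other than A or T. Myl9 held 2, a full box at -161 to -152 and 1 with a single other base at -99 to -90, and Cnn1 held none in this window. Of 32851 mouse promoters of the same length, 8.59% held at least 1 box by this rule and 1.47% a full one.

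Myh11, the myosin heavy chain of smooth muscle, had 6.69, 6.58, 6.88 and 4.29 CPM in KI-96, 2.82, 3.48, 1.12 and 2.15 CPM in E1, and 2.35 to 5.63 CPM in WT with a median of 3.21. All 4 KI-96 mice lay above all 4 E1 mice, 3 of the 4 above every WT mouse, and 2 of the 4 E1 mice below every WT mouse. The log2 fold change in KI-96 against E1 was 1.35 (SE 0.33, edgeR adjusted p = 0.178), with an exact permutation p of 0.0286, the smallest that 70 splits can give. DESeq2 gave 1.36 with an adjusted p of 0.0143, the only adjusted p under 0.05 that any member had in the 24 alternative fits. In KI-96 against WT the value for Myh11 was 0.74 (SE 0.28, adjusted p = 0.382, exact permutation p = 0.0333), and in E1 against WT -0.60 (SE 0.30, adjusted p = 0.591, exact permutation p = 0.115). KI-96 replicate 3, the library that favoured long transcripts, had the most Myh11, and Myh11 has 7599 bases of exon. Leaving that library out gave 1.28 in KI-96 against E1, and leaving out KI-96 replicate 4 gave 1.49. With the Y-linked covariate the value of Myh11 in KI-96 against WT was 0.18 (SE 0.50).

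Myl9, the regulatory light chain, had 9.53, 10.5, 3.77 and 8.70 CPM in KI-96, 10.5, 8.54, 6.81 and 8.87 CPM in E1, and 7.10 to 8.97 CPM in WT with a median of 7.59. KI-96 replicate 3 lay below every other mouse, and 2 of 4 KI-96 mice and 1 of 4 E1 mice lay above every WT mouse. Acta2, smooth muscle actin, had 4.58, 7.44, 2.95 and 5.95 CPM in KI-96, 7.79, 5.22, 3.72 and 7.87 CPM in E1, and 3.70 to 10.8 CPM in WT with a median of 6.73. KI-96 replicate 3 was again the lowest mouse of all, and the genotypes overlapped. In KI-96 against WT the log2 fold changes were 0.07 (SE 0.20) for Myl9 and -0.33 (SE 0.30) for Acta2, and in E1 against WT 0.17 (SE 0.20) and -0.09 (SE 0.30). The 3 contractile genes thus gave values of both signs in every comparison.

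Tagln, a calponin-related actin-binding protein, and Cnn1, calponin itself, did not pass the filter on low counts. Tagln had 18 counts over 4 KI-96 libraries, 7 over 4 E1 libraries and 13 over 7 WT libraries. The gene overlaps Pcsk7 on the opposite strand, which had 10012 counts, and whether counting used strand is not given. Cnn1 had 23 counts in KI-96, 20 in E1 and 61 in WT, at 0.106 to 0.588 CPM. Neither was tested.

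Fibroblast genes held the fibrillar collagens, of which Col1a1 and Col1a2 form type I collagen and Col3a1 forms type III. The 250 bases before the RefSeq start (GRCm38.p6) are shown for Col1a2 and Col3a1, since these collagens lie among the members with the smallest p. Col1a1 is not shown. Capitals mark CCAAT on either strand, the site of nuclear factor Y.
Col1a2, chr6:4505368-4505617, plus strand: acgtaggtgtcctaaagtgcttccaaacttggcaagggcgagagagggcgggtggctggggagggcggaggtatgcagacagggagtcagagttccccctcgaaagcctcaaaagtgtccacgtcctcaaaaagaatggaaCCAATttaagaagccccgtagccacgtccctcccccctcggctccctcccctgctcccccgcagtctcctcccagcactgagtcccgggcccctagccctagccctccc
Col3a1, chr1:45311288-45311537, plus strand: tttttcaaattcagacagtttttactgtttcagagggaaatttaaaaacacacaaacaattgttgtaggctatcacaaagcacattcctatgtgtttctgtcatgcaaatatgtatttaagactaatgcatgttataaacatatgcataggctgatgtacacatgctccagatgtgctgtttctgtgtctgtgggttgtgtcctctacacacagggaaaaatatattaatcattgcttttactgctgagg
Col1a2 held 1 CCAAT, at -109 to -105 from the start, and Col3a1 held none in this window. Of the 32851 promoters, 33.8% held at least 1.

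Col1a1 had 4.37, 5.92, 3.49 and 6.62 CPM in KI-96, 3.28, 2.98, 2.29 and 3.88 CPM in E1, and 3.11 to 4.43 CPM in WT with a median of 4.28. Of 4 KI-96 mice 2 lay above every WT mouse and 2 within the WT range, and 2 of the 4 E1 mice lay below it. The log2 fold change was 0.72 (SE 0.22, adjusted p = 0.222, exact permutation p = 0.0571) in KI-96 against E1, 0.36 (SE 0.19, adjusted p = 0.528) in KI-96 against WT and -0.36 (SE 0.20, adjusted p = 0.613, exact permutation p = 0.0333) in E1 against WT. Without KI-96 replicate 4 the value of Col1a1 in KI-96 against E1 was 0.56 and in KI-96 against WT 0.20. Without the 3 libraries with high cortical markers, a fit with 2 E1 libraries, it was 0.51 (SE 0.27) in KI-96 against E1. Its unadjusted p was then not under 0.05.

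Col1a2 had 6.77, 6.52, 6.77 and 7.91 CPM in KI-96, 4.87, 4.10, 8.46 and 5.35 CPM in E1, and 3.23 to 5.91 CPM in WT with a median of 4.69. All 4 KI-96 mice lay above all 7 WT mice, and the highest mouse of all was E1 replicate 3. On the log2 scale Col1a2 in KI-96 differed from WT by 0.54 (SE 0.19), at an edgeR adjusted p of 0.364 and an exact permutation p of 0.00606. In KI-96 against E1 it was 0.30 (SE 0.22) and in E1 against WT 0.24 (SE 0.19). With the Y-linked covariate the value of Col1a2 in KI-96 against WT was 0.30 (SE 0.36), and without E1 replicate 3 that in E1 against WT was -0.01.

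Col3a1 had 1.24, 2.30, 1.47 and 1.96 CPM in KI-96, 1.18, 0.899, 1.01 and 0.787 CPM in E1, and 0.705 to 1.62 CPM in WT with a median of 0.915. KI-96 lay above E1 in every mouse and overlapped WT only through WT replicate 1. Its log2 fold change was 0.85 in both KI-96 against WT (SE 0.27, adjusted p = 0.343, exact permutation p = 0.0152) and KI-96 against E1 (SE 0.31, adjusted p = 0.262, exact permutation p = 0.0286). In E1 against WT it was 0.01 (SE 0.28). With the Y-linked covariate the value against WT for KI-96 was 0.11 (SE 0.43). Without the 3 libraries with high cortical markers, a fit with 2 E1 libraries, that against E1 was 0.82 (SE 0.41). The value was little changed and its SE larger, and its unadjusted p was then not under 0.05. The gene had 343 counts in all 15 libraries.

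**Figure D4:**
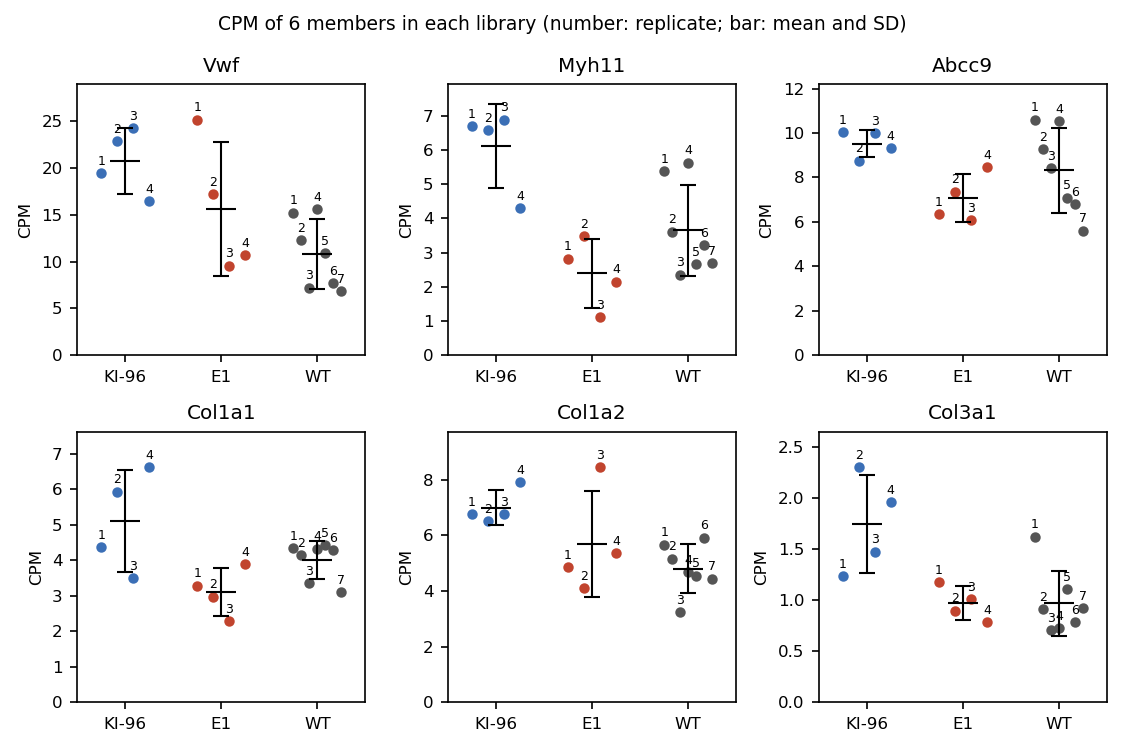
CPM of the 6 members with an unadjusted edgeR p under 0.05 in at least 1 comparison, 1 point per mouse with its replicate number, and the mean and SD of KI-96 (n = 4), E1 (n = 4) and WT (n = 7). Axes start at 0. KI-96 points lie above all WT points for Vwf and Col1a2, and above all E1 points for Myh11, Abcc9 and Col3a1.

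Ptgds had 196, 190.4, 56.9 and 296 CPM in KI-96, 204, 119, 131 and 297 CPM in E1, and 194 to 312 CPM in WT with a median of 224. KI-96 replicates 2 and 3 and E1 replicates 2 and 3 lay below every WT mouse, replicate 2 of KI-96 by little, and KI-96 replicate 4 and E1 replicate 4 were near its top. Its log2 fold changes were -0.37 (SE 0.34) in KI-96 against WT and -0.35 (SE 0.34) in E1 against WT, and without KI-96 replicate 3 the first was -0.07. Slc6a13, a transporter of GABA and taurine in the leptomeninges, had 3.13, 3.55, 2.40 and 4.83 CPM in KI-96, 1.95, 1.80, 3.78 and 4.41 CPM in E1, and 1.47 to 3.20 CPM in WT with a median of 2.35. The top 2 mice of KI-96 and of E1 exceeded every WT mouse, with log2 fold changes of 0.55 (SE 0.28, adjusted p = 0.499) in KI-96 against WT and 0.32 (SE 0.28) in E1 against WT.

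Igf2, an imprinted growth factor of meninges and choroid plexus, had 0.437, 1.38, 0.0546 and 0.874 CPM in KI-96, 0.205, 0.168, 0.532 and 0.525 CPM in E1, and 0.164 to 1.11 CPM in WT with a median of 0.579. Its highest library had 25.3 times its lowest, on 168 counts in all. The groups overlapped, and the 95% interval in KI-96 against WT ran from -1.05 to 1.42. Dcn and Lum encode the collagen-binding proteoglycans decorin and lumican, and their genes lie 47.0 kb apart on chromosome 10. Their log2 fold changes were -0.16 (SE 0.33) and -0.27 (SE 0.41) in KI-96 against WT, and in E1 against WT -0.20 (SE 0.33) and -0.31 (SE 0.41). The collagens and the proteoglycans thus had values of opposite sign in KI-96 against WT, and the proteoglycan intervals included 0. The class median was 0.27 in KI-96 against WT, -0.25 in E1 against WT and 0.26 in KI-96 against E1, with 5, 3 and 7 of 8 positive. Without KI-96 replicate 4 the medians against WT and E1 were 0.11 and 0.12, and without KI-96 replicate 3 the median against WT was 0.53.

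The number of members at an unadjusted p under 0.05 depended on single mice. For KI-96 against WT it was 5 without KI-96 replicate 4, 7 without KI-96 replicate 3 and 10 without WT replicate 1, where 17.9%, 10.9% and 12.1% of all genes passed in the same fits. The 10 were Vwf, Myh11, Col1a2, Col3a1, Cdh5, Cldn5, Flt1, Kdr, Tek and Tie1, all higher in KI-96. For E1 against WT it was 3 without E1 replicate 4 and 2 without WT replicate 1, where 13.8% and 8.57% of all genes passed, and 1 without E1 replicate 2 or 3 or WT replicate 2, 3, 4, 5 or 7. In the fits with 1 such member, 5.98% to 11.4% of all genes passed. With presence of Y-linked reads as a covariate, which WT replicate 1 alone sets within WT, it was 0 in KI-96 against WT, 4 in E1 against WT and 4 in KI-96 against E1, where 1.18%, 2.6% and 13.7% of all genes passed. The 4 in E1 against WT were Abcb1a, Kdr, Myh11 and Tek, all lower in E1.

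KI-96 replicate 3 held the lowest library value of 7 tested members and the highest of 1. The low ones were Mfsd2a, Ly6c1, Egfl7, Acta2, Myl9, Igf2 and Ptgds, and the high one was Myh11. Among the 15 members with less than the median exon length of 4712 bases, 12 lay below the 15-library median in this mouse, with a median deviation of -0.53 on the log2 scale. The 15 longer members had a median deviation of 0.19, and 9 lay above 0. Igf2, with 5723 bases of exon, was low despite its length. In KI-96 replicate 4 the 2 sets had median deviations of 0.35 and 0.29. With all 15 libraries, every member with an unadjusted edgeR p under 0.05 exceeded 6229 bases of exon, the lower bound of long tested genes. They were Vwf (16064), Col1a2 (12426), Col3a1 (9816), Abcc9 (8373), Myh11 (7599) and Col1a1 (6563). Flt1 (13504), Kdr (9030) and Slco1a4 (6414) also did, without such a p. The log2 difference of long from short genes was 0.100, 0.017, 0.479 and -0.108 in KI-96. It was -0.114 to 0.003 in E1 and -0.046 to 0.102 in WT. The part of transcript length in the KI-96 results was not tested.

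**Figure D5:**
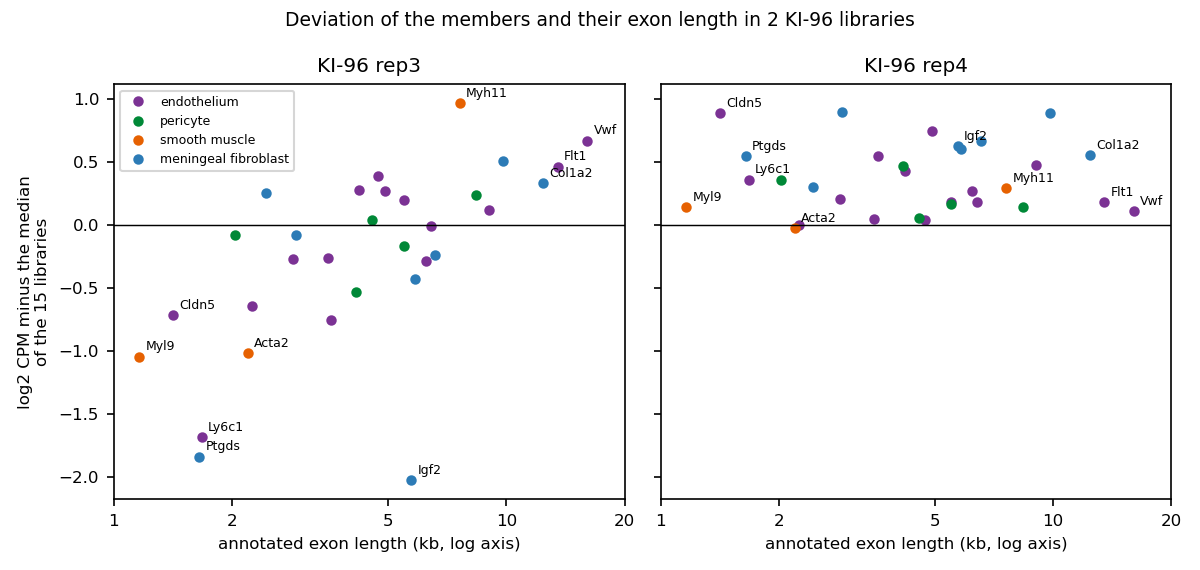
Deviation of each tested member from its 15-library median (log2 CPM) against its annotated exon length in kb on a log axis, in KI-96 replicate 3 and in KI-96 replicate 4. Colours give the class. Short members such as Ptgds, Ly6c1, Myl9 and Acta2 lie below 0 in replicate 3 and Vwf and Myh11 above it, while nearly all members lie above 0 in replicate 4.

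Other genes of the vessel wall came from lists that leave out the members, and 0 genes of these lists had an adjusted p under 0.05. Counts below are at an unadjusted p under 0.05, which 10.5% of all genes passed in KI-96 against WT, 8.75% in E1 against WT and 14.3% in KI-96 against E1, and no list is called particular from them. Values of list genes come from the fit of all 15 libraries only. That fit holds KI-96 replicate 3, which favoured long transcripts, and no Y-linked covariate. The part of transcript length and of Y-linked reads in the list values was not tested. Of 13 tested ligands and receptors of the vascular growth factor and angiopoietin families, 1 passed in KI-96 against WT (Ptprb, a phosphatase that restrains Tek, 0.49, SE 0.21), 1 in E1 against WT (Angpt2, a Tek ligand, 0.55, SE 0.25) and 0 in KI-96 against E1, where Angpt1, the main Tek ligand, had the smallest p (-0.84, SE 0.44). Of 14 genes of barrier Wnt signalling 1 passed in KI-96 against WT (Lef1, a transcription factor of the pathway, 0.94, SE 0.38) and 0 in the other 2, where Reck had -0.16 (SE 0.14) in E1 against WT and Tspan12 0.27 (SE 0.14) in KI-96 against E1, both partners of the Wnt receptor complex. Of 12 junction genes 2, 3 and 2 passed in KI-96 against WT, E1 against WT and KI-96 against E1. Marveld2, the tricellular junction protein tricellulin, had -1.08 (SE 0.34) in KI-96 against WT and -1.08 (SE 0.37) in KI-96 against E1, and Ctnnd1, the catenin that binds cadherins, had 0.28 (SE 0.11) in E1 against WT.

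Of 12 further barrier transporters 4, 0 and 1 passed in the same order, and Lrp1, a lipoprotein receptor, had 0.32 (SE 0.12) in KI-96 against WT and 0.53 (SE 0.14) in KI-96 against E1. Slc7a5, which carries large neutral amino acids, had the smallest p in E1 against WT (0.30, SE 0.17). Of 12 transcription factors on an endothelial list 3, 2 and 2 passed. All 12 had positive values in KI-96 against WT (median 0.38) and 11 in E1 against WT (median 0.31), where 8754 and 9081 of all 18278 genes were positive. The forkhead factor Foxc1 had 0.55 (SE 0.19, adjusted p = 0.362) in KI-96 against WT and 0.66 (SE 0.22) in KI-96 against E1, and Klf2, a factor induced by blood flow, 0.97 (SE 0.27, adjusted p = 0.448) in E1 against WT and -0.74 (SE 0.31) in KI-96 against E1. Of 11 tested arterial and venous genes 2, 3 and 1 passed. Vcam1, a leukocyte adhesion molecule, had -0.30 (SE 0.11) in KI-96 against WT, Ackr1, a chemokine receptor of venules, 0.63 (SE 0.18) in E1 against WT, and Gja5, a connexin of arteries, -1.46 (SE 0.53) in KI-96 against E1.

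Basement membrane genes had a median of 0.29 in KI-96 against E1, where 12 of 14 were positive and 4 passed, all higher, as 7.84% of all genes did. They were the laminin chains Lama2 (0.67, SE 0.16, adjusted p = 0.178), Lama1 (0.68, SE 0.22), Lamc1 (0.40, SE 0.12) and Lamb2 (0.39, SE 0.14). Against WT, KI-96 had 3 that passed, all higher, as 5.8% of all genes did, with Lamb1 first (0.34, SE 0.10) and a median of 0.12. E1 had 2 that passed against WT, both lower, as 5.06% of all genes did, with Lama2 at -0.57 (SE 0.14) and a median of -0.15. Of 13 genes of growth factor and TGF-beta signalling to mural cells 1, 5 and 2 passed. Notch3, the Notch receptor of mural cells, had 0.73 (SE 0.18) in KI-96 against E1 and -0.49 (SE 0.16) in E1 against WT, and these comparisons share the E1 mice. Jag1, a Notch ligand, had -0.45 (SE 0.15) in E1 against WT. The other 3 that passed there were higher in E1, the ligand Pdgfb (0.34, SE 0.15), S1pr1 (0.24, SE 0.11) and Tgfb3 (0.24, SE 0.11), and Tgfb3 had 0.28 (SE 0.11) in KI-96 against WT.

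Of 11 further genes on a pericyte list 1, 1 and 3 passed. The proteoglycan Cspg4, whose cell source bulk tissue does not give, had 0.34 (SE 0.13) in KI-96 against WT and 0.51 (SE 0.14) in KI-96 against E1. Atp13a5 had -0.38 (SE 0.12) in E1 against WT. Of 13 further smooth muscle genes 1, 3 and 3 passed. Synpo2, an actin-binding protein, had 0.67 (SE 0.19) in KI-96 against E1 and 0.44 (SE 0.16) in KI-96 against WT, and Srf, which encodes serum response factor, 0.30 (SE 0.10) in E1 against WT. Of 28 further fibroblast genes 4, 5 and 8 passed. Col6a1, a chain of type VI collagen, had -0.70 (SE 0.19) in KI-96 against WT and -0.81 (SE 0.21) in KI-96 against E1. It was the only lower one of the 8 in KI-96 against E1, where 7.84% of all genes passed higher and 6.42% lower. The 7 higher ones were Col6a3, a further chain of that collagen (1.30, SE 0.38), Alx4, Foxd1, Cped1, Lama1, Foxc1 and Pdgfra, at 0.48 to 1.30. All 5 that passed in E1 against WT were lower, where 5.06% of all genes passed lower and 3.69% higher. Pdgfra, which oligodendrocyte precursors also express, had -0.43 (SE 0.13) in E1 against WT. Of 16 genes of collagen processing 1, 0 and 1 passed. They were the crosslinking enzyme Loxl1 in KI-96 against WT (0.64, SE 0.27) and the hydroxylase Plod1 in KI-96 against E1 (0.44, SE 0.19), and P4ha1 had the smallest p in E1 against WT (0.40, SE 0.21). Of 10 genes of the IGF system 0, 1 and 2 passed, with Igf2r, the receptor that clears Igf2, at 0.43 (SE 0.11) in KI-96 against E1 and -0.22 (SE 0.10) in E1 against WT. Insr, the insulin receptor, had the smallest p of that list in KI-96 against WT (0.22, SE 0.10). Lama1, Foxc1, Des, Insr and Sparc each stand on 2 of these lists, and S1pr1 also on the astrocyte list below.

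Markers of other cells in the tissue block are given beside the vessel genes, and their part in the results was not tested. The 15 choroid plexus markers, a tissue that also makes Igf2 and Ptgds, summed to 91.9 to 166 CPM in KI-96, 63.6 to 129 CPM in E1 and 101 to 488 CPM in WT. Of the 13 tested, 11 were negative in KI-96 against WT (median -0.81) and 13 in E1 against WT (median -0.55). In KI-96 against E1 9 were negative (median -0.07). Of all 18278 genes, 9524, 9197 and 9246 were negative in the same order. At an unadjusted p under 0.05, 1, 2 and 2 of the 13 passed. The highest sum of these markers was in WT replicate 2. Ptgds was at 195 CPM there, near its WT minimum of 194 CPM and below its WT median of 224 CPM. Igf2 was at 0.700 CPM there, where WT ran from 0.164 to 1.11 CPM. The relation of these genes to choroid plexus content was not tested. The 7 blood markers summed to 87.5 to 142 CPM in KI-96, 61.2 to 513 CPM in E1 and 79.3 to 216 CPM in WT. In KI-96 against E1, 4 of 5 tested blood markers passed an unadjusted p under 0.05, all lower, as 6.42% of all genes did, with Hbb-bs, a beta globin, at -1.49 (SE 0.53). For E1 against WT 3 of the 5 passed, all higher, as 3.69% of all genes did, with Hbb-bt at 1.24 (SE 0.36). The 6 ependymal markers summed to 22.0 to 47.0 CPM in KI-96, 30.1 to 81.4 CPM in E1 and 29.5 to 65.4 CPM in WT. In KI-96 against E1 5 of the 6 passed, all lower, against 6.42% of all genes, with Tmem212 at -1.63 (SE 0.54). Markers of cortical neurons, which lie next to the meninges, summed to 167 to 306 CPM in KI-96, 148 to 1572 CPM in E1 and 150.2 to 1386 CPM in WT. The median over the 11 was -2.28 in KI-96 against E1, -0.96 in KI-96 against WT and 1.24 in E1 against WT. Without the 3 libraries in which these markers were high, 2 members had an unadjusted p under 0.05 in KI-96 against E1, Myh11 (1.29, SE 0.35) and Col1a2 (0.45, SE 0.20), and 10.7% of all genes did. That fit has 2 E1 libraries.

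Astrocytes, whose endfeet cover the vessels, had 8 tested markers that summed to 3546 to 4367 CPM in KI-96, 3335 to 4047 CPM in E1 and 3625 to 4474 CPM in WT. Summed myelin markers were highest in E1 replicate 4 at 17122 CPM and lowest in E1 replicate 3 at 7151 CPM. Ptgds was at 297 and 131 CPM in these libraries, and the relation was not tested. The 11 myelin markers had medians of -0.19 in KI-96 against WT and -0.38 in E1 against WT, and the 9 markers of striatal projection neurons -0.13 and 0.12. The 8 tested markers of microglia and perivascular macrophages had medians of 0.08 and -0.13. Lyve1, a marker of perivascular macrophages and lymphatic vessels, was at or below 0.754 CPM in every library. For KI-96 against WT the marker with the smallest p was Tmem72 for choroid plexus (-0.99, SE 0.43), Alas2 for blood (0.70, SE 0.30), Cfap126 for ependyma (-0.72, SE 0.35) and Rorb for cortical neurons (0.31, SE 0.16). For myelin it was Ugt8a (-0.52, SE 0.22), for astrocytes Aldh1l1 (0.23, SE 0.08), for microglia Cx3cr1 (0.27, SE 0.12) and for striatal projection neurons Penk (-0.38, SE 0.22).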

How the data were processed

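The deposited table holds whole-number counts per gene for 15 libraries, with STAR, HTSeq, DESeq2 1.24.0 and the build GRCm38 named, without their roles, per the submitters' processing notes. No source used here gives the authors' counting options, strandedness, library kind or any batch. Nothing says how mice were chosen, and p-values set group differences against the spread between these libraries only.

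Genes with too few counts were left out with filterByExpr (minimum count 10), which kept 18278 genes. One edgeR 4.0.16 quasi-likelihood fit (R 4.3.3, limma 3.58.1, TMM normalization, robust) held all 15 libraries, and p-values were adjusted over all tested genes by the Benjamini-Hochberg method. CPM used TMM library sizes, log2 CPM a prior count of 2, and log2 fold changes are the group named first over the other. Exact permutation tests were two-sided on mean log2 CPM. Symbols, coordinates and exon lengths came from an annotation of GRCm38, in which 54165 of 54232 identifiers matched without version. Promoters came from RefSeq tables of GRCm38.p6, whose starts differ from those of that annotation for some genes. The main edgeR fit was tested on simulated counts, and the alternative fits and the other steps were not.

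All 33 members are named. Values per library are given for the 2 members of each class with the highest TPM, the 3 with the smallest p in each comparison and the 1 of each class that varied most. The other genes came from 22 lists, and of each list the gene with the smallest p is named where it is described. Abcc9 was given per library after its values were seen. The members and lists were chosen with earlier results of these data known. Alternatives were DESeq2 1.42.0, limma-voom, other size factors, no filter, 2 groups only, a replicate block, a Y-linked covariate and leaving out libraries. Leaving out WT replicates 5 to 7 was chosen after seeing the data.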

Additional observations from a re-analysis of the deposited data

Results flagged for a closer look

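In groups of 4 or 7 mice, 5 of 108 sets of values had a highest or lowest library that stood far from the others by Dixon's criterion, and chance flags about 1 in 20 such sets. Ly6c1 was at 27.7 CPM in WT replicate 2, where the next WT library had 21.5 CPM. Myh11 was at 4.29 CPM in KI-96 replicate 4, below the next KI-96 library at 6.58 CPM. Myl9 was at 8.97 CPM in WT replicate 7, above the next at 7.88 CPM. Lum was at 1.07 CPM in E1 replicate 2, above the next at 0.472 CPM. The mean log2 CPM of the fibroblast genes was 1.31 in WT replicate 3, a library with high cortical markers, where the next WT library had 1.83.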

How the results depend on the processing

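Over 24 alternatives, Vwf, Col1a2 and Col3a1 in KI-96 against WT, and Myh11, Col1a1 and Col3a1 in KI-96 against E1, kept their sign, though not their size. Against WT, Vwf lay between 0.45 and 1.05, Col1a2 between 0.30 and 0.59 and Col3a1 between 0.11 and 1.01, each lowest with the Y-linked covariate. Against E1, Myh11 lay between 1.11 and 1.58, Col1a1 between 0.51 and 0.86 and Col3a1 between 0.69 and 0.97. The endothelial median turned negative in 2 of 24 alternatives in KI-96 against WT (lowest -0.34) and in 3 of 24 in E1 against WT (lowest -0.40). In KI-96 against E1 it was -0.04 without KI-96 replicate 2 and -0.01 without E1 replicate 4. The pericyte median turned negative in 3 of 24 in KI-96 against WT (lowest -0.15) and positive in 5 of 24 in E1 against WT (highest 0.07). That of smooth muscle turned its sign in all 3 comparisons, and the fibroblast median in none. Members with an unadjusted p under 0.05 numbered 0 in E1 against WT, and 1 with no filter on low counts, 2 with DESeq2, 2 with a replicate block, 4 with the Y-linked covariate, 2 without WT replicates 5 to 7, and 0 to 3 when single libraries were left out. The shares of all genes that passed in the same fits were 8.75%, 6.78%, 9.66%, 5.61%, 2.6%, 5.08% and 5.98% to 13.8%. The 4 in KI-96 against WT became 0 with the Y-linked covariate and 4 to 10 when single libraries were left out. All genes passed there at 10.5%, 1.18% and 7.96% to 17.9%. The 4 in KI-96 against E1 became 2 without the 3 libraries with high cortical markers and 3 to 4 when single libraries were left out. All genes passed there at 14.3%, 10.7% and 10% to 21%. With DESeq2 1 member, Myh11, had an adjusted p under 0.05 in KI-96 against E1.

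Over all genes, edgeR called 1 in E1 against WT, and 0 with no filter, with 2 groups only, with the Y-linked covariate, without the 3 cortical-marker libraries or without WT replicates 5 to 7. It was 53 with DESeq2, 2 with limma-voom, 4 with a replicate block and 0 to 257 when single libraries were left out, the highest without E1 replicate 4. In KI-96 against WT the 0 became 1 with no filter, 66 with DESeq2, 6 with a replicate block and 0 to 11 when single libraries were left out. In KI-96 against E1 the 0 became 3 with no filter, 206 with DESeq2, 1 with the Y-linked covariate and 0 to 190 when single libraries were left out, with 128 without KI-96 replicate 4. The cause was not tested.

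Of 93 member results, 9 turned their sign with both values beyond 1 SE of 0, all with the Y-linked covariate. In E1 against WT they were Cldn5 at -0.47 and Cdh5 at -0.42. Those in KI-96 against WT were Cldn5 at -0.47, Pecam1 at -0.34, Flt1 at -0.39, Kdr at -0.47, Tek at -0.50, Tie1 at -0.37 and Abcb1a at -0.43. That fit rests on WT replicate 1 alone within WT. Same-numbered libraries correlated between -0.103 and 0.194 in their deviations from group means. Differences between single libraries also enter these correlations, so they cannot decide whether the numbers pair mice. What the numbers stand for is not given in the labels.

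Low counts limit Col3a1, Lum and Igf2, and a prior count of 0.5 moved the class mean of the fibroblast genes by at most 0.16 in log2.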
